A study of Mus musculus with 26 samples.

Results

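Transcript levels of 9 mouse genes of heme synthesis and breakdown were followed through 8 populations of EML cells: Alas1, Alas2, Alad, Uros, Urod, Cpox, Ppox and Fech, which make heme, and Blvrb, which acts on a product of its breakdown. The genes were chosen by symbol from the pathway and are given in the order of its steps. They were measured by 11 probes (Alas1 and Fech by 2 each), of 41174 probes on the array, and are 9 of the 18378 gene symbols that could be matched to a probe. All 11 probes were well above background on all 26 arrays, so that every member entered every comparison.

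EML, named in the labels as an erythroid, myeloid and lymphoid line, is a mouse blood progenitor cell line grown in IMDM with horse serum and SCF-conditioned medium (SCF is stem cell factor). Total RNA was hybridised to 1-colour Agilent arrays in 3 sets that lie on different slides, and levels were tested only within a set. Fractions separated by Sca1, CD34 and cKit make up the 9 arrays of the first set, 3 each of Sca1hi, CR Sca1lo and EryCP, with all 3 fractions on each slide. The second set of 6 arrays held Ediff and EryCP repeat, with 3 arrays each; EryCP repeat is the EryCP fraction measured again, and Ediff cells, negative for CD34 and cKit, were derived from EryCP cells by differentiation under erythropoietin (Epo), the hormone that drives red cell formation. The third set, of 11 arrays, has 4 of CD34+ CD103-, 4 of CD34- CD103- and 3 of CD34- CD103- Epo, for which the fraction without CD34 and CD103 was taken through erythroid differentiation under Epo. How much Epo was given and for how long, where the gates lay and whether a sort followed Epo in the third set: none of this is given in the sources used here. All populations are named as EML cells, but the titles of the third set read EMLe2 where those of the other sets read EML. What that name marks is not stated here. No label says that arrays of a group came from separate cultures, so that p-values measure the spread between these samples, which may be technical.

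Heme is built in a chain of enzymatic steps that starts and ends in the mitochondrion and passes through the cytosol between. ALAS joins glycine and succinyl-CoA in the first and usually rate-limiting step, with Alas1 as the form used by most cells and Alas2 as the form of the red cell lineage. In maturing erythroblasts heme output rises steeply to supply haemoglobin, and Alas2 is a textbook target of the factor GATA1. Heme is broken down by heme oxygenase to biliverdin, which is turned into bilirubin mainly by the A form of biliverdin reductase, encoded by Blvra. The B form, encoded by Blvrb, is abundant in red cells and also reduces flavins.

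To show the sequence context of genes that moved together, the 250 bases upstream of each gene's start were taken from RefSeq (mouse assembly GRCm38.p6). A window was found for 8 of the 9 genes, 12 windows in all because some genes have several starts; Fech had none. Both strands of the windows were searched for GATAA preceded by A or T, letters that GATA factors favour, for the CACC-type motif CCNCNCCC, and for TGACNNNGC, a motif of NFE2-type factors. Of 32851 such windows over all genes, 16.6% held the GATA letters, 45.9% the CACC-type letters and 10.2% TGACNNNGC. Alas2, Cpox and 1 of 2 Uros windows were the 3 of 12 member windows with the GATA letters, which are in capitals below, and Alas1, without them, is shown beside Alas2 because the forms of ALAS differed in the results. Sequences run 5′ to 3′ on the gene's strand and end at the base before the start.
Alas2 (chrX:150547167-150547416, plus strand): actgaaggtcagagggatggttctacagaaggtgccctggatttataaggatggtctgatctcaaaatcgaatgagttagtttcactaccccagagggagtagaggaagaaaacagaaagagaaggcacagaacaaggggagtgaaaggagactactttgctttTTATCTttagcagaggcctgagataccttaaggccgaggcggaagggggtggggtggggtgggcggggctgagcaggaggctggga
Cpox (chr16:58669958-58670207, plus strand): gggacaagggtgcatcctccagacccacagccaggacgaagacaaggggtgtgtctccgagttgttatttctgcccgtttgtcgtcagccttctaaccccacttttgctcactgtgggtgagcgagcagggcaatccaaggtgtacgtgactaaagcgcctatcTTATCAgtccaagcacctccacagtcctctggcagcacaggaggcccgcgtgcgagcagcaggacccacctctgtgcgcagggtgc
Uros (chr7:133702501-133702750, minus strand): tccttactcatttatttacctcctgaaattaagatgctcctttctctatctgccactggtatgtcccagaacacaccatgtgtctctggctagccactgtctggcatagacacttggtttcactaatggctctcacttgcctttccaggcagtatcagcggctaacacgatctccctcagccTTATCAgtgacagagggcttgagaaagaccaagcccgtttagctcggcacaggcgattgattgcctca
Alas1 (chr9:106247955-106248204, minus strand): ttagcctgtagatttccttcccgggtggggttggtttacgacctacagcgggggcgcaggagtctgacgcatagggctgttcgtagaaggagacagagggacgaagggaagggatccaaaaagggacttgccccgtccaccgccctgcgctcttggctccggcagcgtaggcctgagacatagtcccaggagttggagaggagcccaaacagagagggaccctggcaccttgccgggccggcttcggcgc

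In Alas2 the GATA letters begin 86 bases upstream of the start, with GATAA preceded by A on the opposite strand. The window of Alas2 also holds 4 matches of the CACC-type motif, at 42, 40, 35 and 26 bases upstream, of which the first 3 overlap, and none overlaps the GATA letters. In Cpox the GATA letters likewise begin 86 bases upstream, and in Uros 68 bases upstream, both on the opposite strand and preceded by T. CACC-type letters were in 7 of the 12 member windows (of Alas1, Alas2, Alad, Uros and Blvrb), and TGACNNNGC was in 0. These matches describe letters only and are not bound sites measured in these cells.

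A level below is the log2 processed signal of a probe minus the 75th percentile of its array, so that 0 is the brightness at that percentile and 1 unit is a doubling. The percentile lay between 425.3 and 1247 signal units over the 26 arrays, and 76.0% to 93.8% of probes were well above background. Within groups, arrays correlated over probes at r between 0.968 and 0.993, and 0 pairs were identical. Of the third set, slide 3 held CD34- CD103- replicates 2 and 4 and CD34+ CD103- replicate 3 but no CD34- CD103- Epo array, and the levels of several heme genes were lower on it, as given below. The markers named for Ediff were low in it: Cd34 was not well above background there and at least 78.0-fold lower than in EryCP repeat (limma adjusted p = 1.77e-05; dim arrays taken at the lowest signal of a probe well above background), and Kit was lower (log2 difference -3.31, limma adjusted p = 8.02e-06). Levels of different genes come from different probes and are not set against each other.

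**Figure D1:**
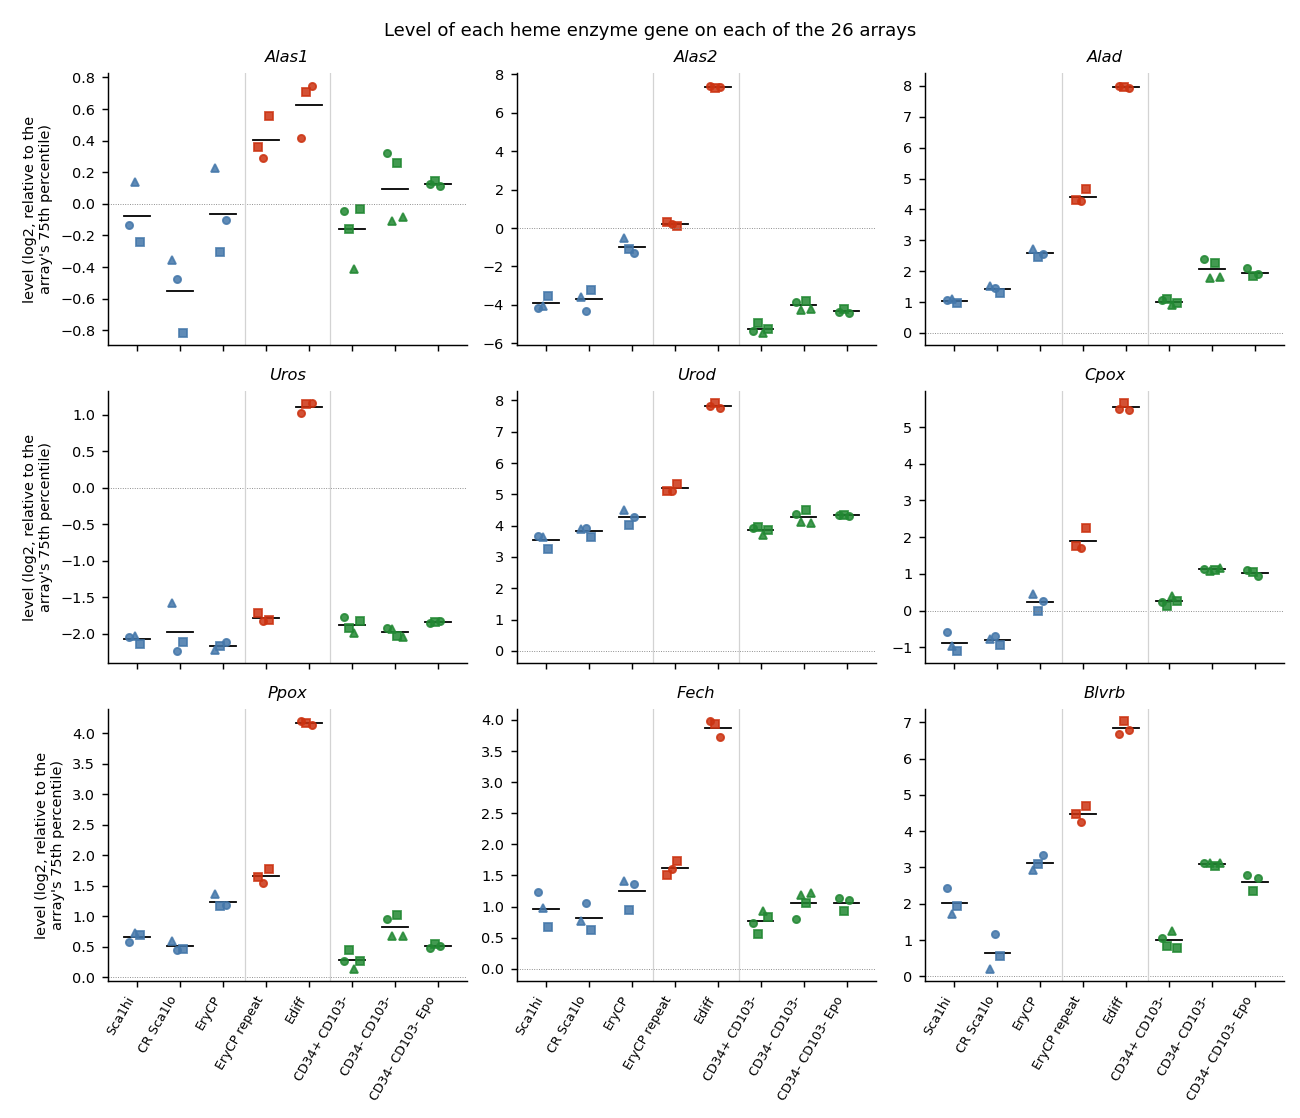
Level of each of the 9 genes on each of 26 arrays (log2 signal relative to the array's 75th percentile, y axis) in the 8 groups (x axis), with colour for the array set, marker shape for the slide and a bar at the group mean. Within the second set the Ediff arrays stand above EryCP repeat in every panel except that of Alas1, with Alas2 between 7.30 and 7.42 against 0.09 to 0.30 in EryCP repeat, while Alas1 spans a narrow range.

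Differences were tested with limma over all genes of a set, and calls were made per comparison where the p, adjusted by Benjamini and Hochberg's method, was under 0.05. In Ediff against EryCP repeat, 8 of the 9 genes were higher and 0 lower, all except Alas1. That comparison moved much of the array, since 39.8% of all genes tested were called higher, and the median log2 difference was 2.64 over the members and 0.45 over all genes. The groups did not overlap for 8 members, against 63.3% of all genes. With normexp background correction of the median signal, 2 members and 235 of all genes were called.

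In CD34- CD103- against CD34+ CD103- cells, 6 of 9 were higher and 0 lower, where 5.66% of all genes were called higher, with a median of 0.55 over the members and -0.06 over all genes. In EryCP against CR Sca1lo, 5 of 9 were higher and 0 lower (2.7% of all genes called higher, medians 0.73 and -0.07), and in EryCP against Sca1hi 4 of 9 were higher and 0 lower (3.1%, medians 0.74 and -0.04). In CD34- CD103- Epo against CD34+ CD103- cells, 5 of 9 were higher and 0 lower (2.57%, medians 0.46 and 0.02). Groups did not overlap for 6, 7, 6 and 8 members in these 4 comparisons, against 17.1%, 18.1%, 18.9% and 18.6% of all genes. The counts of the first set depend on few arrays: 0 members were called in either EryCP comparison without slide 3, where 32 and 117 of all genes were called. The differences of the 5 genes called in EryCP against CR Sca1lo were then 2.60 for Alas2, 2.34 for Blvrb, 1.14 for Alad, 0.94 for Cpox and 0.72 for Ppox. With normexp 1 and 0 members were called in the EryCP comparisons, and 8 and 6 with slide as a block. In the third set, 3 members were called in CD34- CD103- against CD34+ CD103- without slide 2, and 1 in the Epo comparison without slide 1 or 2.

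In CR Sca1lo against Sca1hi, only Blvrb was called in the fit without slide, and it was lower (2.38% of all genes called lower, medians 0.09 and 0.03). Groups did not overlap for 3 members, against 18.6% of all genes. With slide as a block, 1 member was called higher (Alad, 0.37) and 2 lower (Alas1, -0.47, and Blvrb), where 4696 of all genes were called. In CD34- CD103- Epo against CD34- CD103- cells, 0 of 9 were called by limma, 2 had an unadjusted p under 0.05, and the medians were -0.09 and 0.08 (0.676% of all genes called higher and 1.92% lower). Comparisons within the first set share their groups, as do those within the third.

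The erythroid form of the first enzyme, Alas2, showed the widest range of the 9 genes. Its levels were -4.14, -4.06 and -3.56 in Sca1hi, -3.58, -4.34 and -3.22 in CR Sca1lo, and -0.52, -1.08 and -1.28 in EryCP. The EryCP arrays were all above the others, and Sca1hi and CR Sca1lo overlapped. Alas2 was 6.75-fold higher in EryCP than in CR Sca1lo (log2 difference 2.75 ± 0.33 SE, n = 3 and 3, limma adjusted p = 0.00205) and 7.76-fold higher than in Sca1hi (2.96 ± 0.33, limma adjusted p = 0.00116). The normexp background correction, which treats part of a dim signal as background, left these differences at 1.05 and 1.00, neither of them called (limma adjusted p = 0.525 and 0.562); with spots of outlying background left out first, both were called.

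In the second set, Alas2 lay at 7.42, 7.30 and 7.33 in Ediff and at 0.30, 0.20 and 0.09 in EryCP repeat. No value of one group came near the other, and the difference of 7.15 ± 0.10 (142-fold, limma adjusted p = 1.23e-06) was the largest of any member in any comparison within a set. In the third set, Alas2 lay at -3.83, -4.27, -3.80 and -4.20 in CD34- CD103-, at -5.35, -4.93, -5.46 and -5.23 in CD34+ CD103-, and at -4.37, -4.22 and -4.41 in CD34- CD103- Epo. All CD34- CD103- arrays were above all CD34+ CD103- arrays, by a mean of 1.22 ± 0.14 (2.33-fold, limma adjusted p = 0.000238). CD34- CD103- Epo also stood above CD34+ CD103- (0.91 ± 0.15, limma adjusted p = 0.00653), and against CD34- CD103- the difference was -0.30 ± 0.15 (limma adjusted p = 0.36), with overlapping values. With normexp the differences of CD34- CD103- and CD34- CD103- Epo from CD34+ CD103- were 0.23 and 0.24 and were not called (limma adjusted p = 0.443 and 0.968). Without spots of outlying background the former was called and the latter was not (0.49, limma adjusted p = 0.0564).

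Alas1, the form of the enzyme used by most cells, differed little. It lay at -0.13, 0.14 and -0.24 in Sca1hi, at -0.36, -0.47 and -0.82 in CR Sca1lo, and at 0.23, -0.31 and -0.11 in EryCP. CR Sca1lo was the lowest of these fractions on each of the 3 slides, but its difference from Sca1hi, -0.47 ± 0.20, did not pass the test (limma adjusted p = 0.371), nor did EryCP against CR Sca1lo (0.49 ± 0.20, limma adjusted p = 0.321). With slide as a block, which compares arrays within each slide, both passed (limma adjusted p = 0.00871 and 0.00624). These values are of the brighter probe of Alas1. The other probe gave -0.39 ± 0.14 and 0.32 ± 0.14 (limma adjusted p = 0.22 and 0.32) and was not fitted by itself with the block.

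Ediff arrays had Alas1 levels of 0.41, 0.71 and 0.75 and EryCP repeat arrays 0.36, 0.29 and 0.56. These ranges overlapped and the difference of 0.22 ± 0.13 did not pass (limma adjusted p = 0.192), but passed at 0.22 with normexp without spots of outlying background (limma adjusted p = 0.0489). CD34- CD103- arrays were at 0.32, -0.11, 0.26 and -0.08, CD34+ CD103- at -0.04, -0.16, -0.41 and -0.03, and CD34- CD103- Epo at 0.12, 0.14 and 0.12. The difference of 0.26 ± 0.12 between CD34- CD103- and CD34+ CD103- did not pass either (limma adjusted p = 0.238), but did with slide as a block (0.35 ± 0.06, limma adjusted p = 0.00358) and without slide 3 (0.37, limma adjusted p = 0.0378). The other probe of Alas1 gave 0.15 ± 0.10 for CD34- CD103- against CD34+ CD103- (limma adjusted p = 0.383). For Ediff against EryCP repeat it gave 0.23 ± 0.13 (limma adjusted p = 0.16). Arrays were also scaled on their 288 spike-in spots in place of the 75th percentile. Alas1 in Ediff, by the brighter probe, then turned to a called fall of 0.82 on the log2 scale (limma adjusted p = 0.0106).

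How the forms of ALAS moved against each other was read from the change of the log2 ratio of Alas2 to Alas1 within each array, in 7 comparisons. The ratio was higher by 6.93 in Ediff than in EryCP repeat, by 2.27 in EryCP than in CR Sca1lo and by 2.94 in EryCP than in Sca1hi. With 3 arrays against 3 the exact permutation test (2-sided) cannot go below 0.1, which is the p each of these gave (0.117 adjusted over 7). The ratio was higher by 0.96 in CD34- CD103- than in CD34+ CD103-, and changed by -0.33 in CD34- CD103- Epo against CD34- CD103-, each with an exact permutation p of 0.0286, the smallest these groups allow (0.1 adjusted). Normexp left these last changes at 0.04 and -0.03 (exact permutation p = 0.886 and 0.314).

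The cytosolic members are Alad, which joins ALA molecules to porphobilinogen, Uros, which closes the ring to uroporphyrinogen III, and Urod, which decarboxylates it. Alad was called higher in 5 of the 7 comparisons within a set. Its levels were 1.08, 1.11 and 0.96 in Sca1hi, 1.53, 1.44 and 1.28 in CR Sca1lo, and 2.73, 2.45 and 2.54 in EryCP. The 3 fractions did not overlap, and the order was Sca1hi, CR Sca1lo, EryCP from low to high; the difference of 0.37 ± 0.14 between the lower 2 did not pass (limma adjusted p = 0.3), except with slide as a block (limma adjusted p = 0.0129). EryCP was higher than CR Sca1lo by 1.16 ± 0.14 (2.23-fold, limma adjusted p = 0.00252) and than Sca1hi by 1.53 ± 0.14 (2.88-fold, limma adjusted p = 0.000464), and neither difference was called with normexp (limma adjusted p = 0.393 and 0.201).

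Alad lay at 8.01, 7.95 and 7.93 in Ediff and at 4.31, 4.27 and 4.67 in EryCP repeat, a difference of 3.54 ± 0.13 (11.7-fold, limma adjusted p = 9.24e-06). It lay at 2.38, 1.79, 2.28 and 1.81 in CD34- CD103-, at 1.06, 1.09, 0.92 and 0.98 in CD34+ CD103-, and at 2.09, 1.84 and 1.90 in CD34- CD103- Epo. Both CD34- CD103- populations stood above every CD34+ CD103- array, by 1.06 ± 0.14 without Epo (limma adjusted p = 0.00056) and 0.93 ± 0.15 with it (limma adjusted p = 0.00515), and overlapped each other. The lower pair of CD34- CD103- values, 1.79 and 1.81, came from slide 3.

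Uros moved in 1 comparison only. Its levels spanned -2.13 to -2.03 in Sca1hi, -2.23 to -1.58 in CR Sca1lo and -2.22 to -2.11 in EryCP, and -2.04 to -1.92, -1.98 to -1.77 and -1.86 to -1.83 in CD34- CD103-, CD34+ CD103- and CD34- CD103- Epo. None of the differences within these sets passed (log2 differences from -0.19 to 0.14). In Ediff the levels were 1.02, 1.14 and 1.15, against -1.72, -1.82 and -1.81 in EryCP repeat, a difference of 2.89 ± 0.09 (7.41-fold, limma adjusted p = 5.2e-06). Uros was thus called in the comparison of Ediff alone of the 7 within a set; with spike-in scaling it was also called lower in CD34- CD103- (-0.46, limma adjusted p = 0.0265) and in CD34- CD103- Epo (-0.64, limma adjusted p = 0.00437), both against CD34+ CD103-.

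Urod lay at 7.83, 7.90 and 7.77 in Ediff and at 5.12, 5.12 and 5.35 in EryCP repeat (difference 2.64 ± 0.11, 6.24-fold, limma adjusted p = 1.16e-05). In the first set it lay at 3.68, 3.64 and 3.26 in Sca1hi, 3.89, 3.92 and 3.63 in CR Sca1lo, and 4.51, 4.03 and 4.28 in EryCP. EryCP arrays were above all others, yet the differences of 0.74 ± 0.19 from Sca1hi and 0.46 ± 0.19 from CR Sca1lo did not pass (limma adjusted p = 0.063 and 0.324). They passed in 6 and 4 of 20 alternatives, among them slide as a block (limma adjusted p = 0.00133 and 0.0102). In the third set it lay at 4.37, 4.11, 4.50 and 4.07 in CD34- CD103-, 3.94, 3.96, 3.71 and 3.88 in CD34+ CD103-, and 4.33, 4.35 and 4.31 in CD34- CD103- Epo. The called differences from CD34+ CD103- were small, 0.40 ± 0.11 (1.32-fold, limma adjusted p = 0.0344) and 0.46 ± 0.11 (1.37-fold, limma adjusted p = 0.0448), and with spike-in scaling they were 0.04 and -0.21 and were not called. The call without Epo was lost in 10 of 22 alternatives, among them both forms of normexp and leaving out CD34- CD103- replicate 1 or 3 or CD34+ CD103- replicate 1, 3 or 4 (limma adjusted p = 0.0631 to 0.0842 for these arrays). The call with Epo was lost in 15 of 21, beside the change of sign, and whichever array of its groups was left out (limma adjusted p = 0.059 to 0.151).

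The last steps return to the mitochondrion. Cpox oxidises coproporphyrinogen III, Ppox oxidises the product to protoporphyrin IX, and Fech inserts iron to make heme. Cpox lay at -0.59, -0.97 and -1.10 in Sca1hi, -0.76, -0.70 and -0.94 in CR Sca1lo, and 0.44, -0.03 and 0.26 in EryCP. EryCP stood apart from both, by 1.03 ± 0.19 from CR Sca1lo (2.04-fold, limma adjusted p = 0.019) and 1.11 ± 0.19 from Sca1hi (2.16-fold, limma adjusted p = 0.0113). The former call was lost when any array of its groups except EryCP replicate 2 was left out (limma adjusted p = 0.068 to 0.0906), and the latter without Sca1hi replicate 2 or EryCP replicate 1 or 3 (limma adjusted p = 0.05003 to 0.0664). Its level was 5.50, 5.64 and 5.47 in Ediff against 1.75, 1.71 and 2.25 in EryCP repeat (difference 3.63 ± 0.17, 12.4-fold, limma adjusted p = 2.04e-05), which followed Alas2 in size among the members.

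In the third set, Cpox lay between 1.07 and 1.17 in the 4 arrays of CD34- CD103-, at 0.24, 0.12, 0.40 and 0.27 in CD34+ CD103-, and at 1.09, 1.05 and 0.96 in CD34- CD103- Epo. The CD34- CD103- populations with and without Epo overlapped, and both stood clear of CD34+ CD103- (0.86 ± 0.08, 1.82-fold, limma adjusted p = 3.27e-05 without Epo). The slide 3 arrays of CD34- CD103- gave both the lowest and the highest of its 4 Cpox values. With Epo the difference from CD34+ CD103- was 0.77 ± 0.08 (1.71-fold, limma adjusted p = 0.000388).

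Ppox lay at 0.58, 0.72 and 0.69 in Sca1hi, 0.60, 0.45 and 0.46 in CR Sca1lo, and 1.36, 1.17 and 1.17 in EryCP. It was higher in EryCP than in CR Sca1lo by 0.73 ± 0.13 (1.66-fold, limma adjusted p = 0.0171) and than in Sca1hi by 0.57 ± 0.13 (1.49-fold, limma adjusted p = 0.0421). The former call was lost without any 1 array of its groups except EryCP replicate 2 (limma adjusted p = 0.0585 to 0.0975), and the latter whichever array was left out (limma adjusted p = 0.079 to 0.168). Ediff arrays were at 4.20, 4.17 and 4.13 and EryCP repeat arrays at 1.64, 1.55 and 1.76 (difference 2.51 ± 0.10, 5.71-fold, limma adjusted p = 9.86e-06). In the third set, CD34- CD103- lay at 0.96, 0.67, 1.01 and 0.68, CD34+ CD103- at 0.27, 0.44, 0.14 and 0.26, and CD34- CD103- Epo at 0.48, 0.54 and 0.51, between the others. The difference between CD34- CD103- and CD34+ CD103- was 0.55 ± 0.10 (1.47-fold, limma adjusted p = 0.00475) and was 0.20 and not called with spike-in scaling.

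Of the 7 comparisons within a set, Fech was called in that of Ediff with EryCP repeat. Its levels were 3.98, 3.93 and 3.72 there and 1.51, 1.60 and 1.74 in EryCP repeat, a difference of 2.26 ± 0.11 (4.79-fold, limma adjusted p = 2.89e-05), and its other probe gave 2.04 ± 0.09 (limma adjusted p = 1.22e-05). In the other sets its group ranges were 0.67 to 1.24 in Sca1hi, 0.62 to 1.06 in CR Sca1lo, 0.95 to 1.41 in EryCP, 0.79 to 1.22 in CD34- CD103-, 0.56 to 0.93 in CD34+ CD103- and 0.94 to 1.13 in CD34- CD103- Epo. The differences there ran up to 0.43 ± 0.21, for EryCP against CR Sca1lo (limma adjusted p = 0.47), which was called with slide as a block (limma adjusted p = 0.0196). CD34- CD103- against CD34+ CD103- gave 0.30 ± 0.12 (limma adjusted p = 0.137), or 0.39 and a call without CD34- CD103- replicate 1 (limma adjusted p = 0.0406). The other probe of Fech gave 0.27 ± 0.22 for EryCP against CR Sca1lo (limma adjusted p = 0.819). For CD34- CD103- against CD34+ CD103- it gave 0.23 ± 0.11 (limma adjusted p = 0.236).

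**Figure D2:**
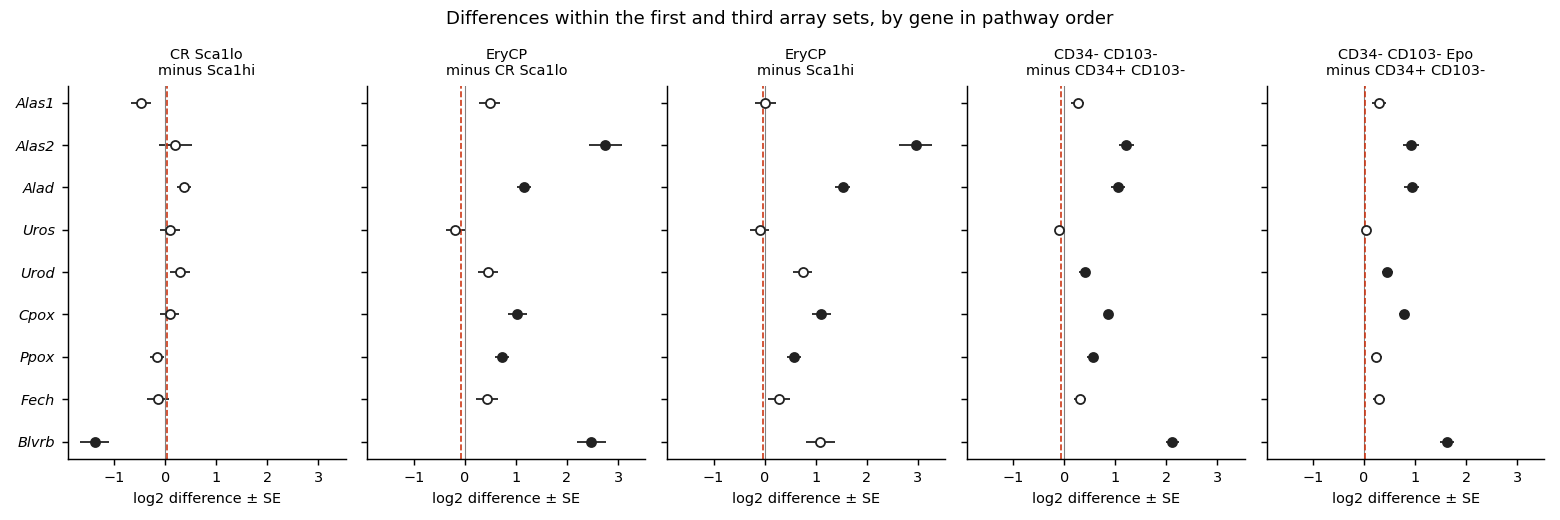
Log2 difference of each of the 9 genes, in pathway order, with its standard error (bars) in 5 comparisons within the first and the third set; filled points were called at an adjusted p under 0.05, open points were not, and the dashed line is the median of all genes tested. Alas2, Alad and Cpox were called higher in the 4 panels of EryCP against either Sca1 fraction and of CD34- CD103- cells, with or without Epo, against CD34+ CD103-, Uros and Fech in none of the panels, and Blvrb was the gene called in the panel of CR Sca1lo against Sca1hi, where it was lower.

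Blvrb, on the side of breakdown, was the one member called between the Sca1 fractions in the fit without slide. It lay at 2.43, 1.72 and 1.93 in Sca1hi, 0.21, 1.17 and 0.57 in CR Sca1lo, and 2.94, 3.08 and 3.34 in EryCP. The groups did not overlap, and the order was CR Sca1lo, Sca1hi, EryCP from low to high. It was 2.60-fold lower in CR Sca1lo than in Sca1hi (-1.38 ± 0.28, limma adjusted p = 0.0381; between -1.51 and -1.25 within the 3 slides) and 5.54-fold higher in EryCP than in CR Sca1lo (2.47 ± 0.28, limma adjusted p = 0.0017). The difference of 1.09 ± 0.28 between EryCP and Sca1hi did not pass (limma adjusted p = 0.0659), but did in 6 of 20 alternatives, among them slide as a block (limma adjusted p = 0.000987). The call between EryCP and CR Sca1lo was lost without slide 2 or 3 (limma adjusted p = 0.0655 and 0.119). The call between CR Sca1lo and Sca1hi was lost when any array of the 2 groups except CR Sca1lo replicate 2 was left out (limma adjusted p from 0.0924 to 0.151).

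In the other sets, Blvrb lay at 6.68, 7.03 and 6.80 in Ediff and 4.47, 4.25 and 4.71 in EryCP repeat (difference 2.36 ± 0.16, 5.14-fold, limma adjusted p = 8.95e-05). It lay at 3.14, 3.13, 3.04 and 3.13 in CD34- CD103-, 1.07, 0.84, 1.26 and 0.79 in CD34+ CD103-, and 2.79, 2.35 and 2.70 in CD34- CD103- Epo, and these 3 groups did not overlap. Its difference of 2.12 ± 0.13 between CD34- CD103- and CD34+ CD103- (4.34-fold, limma adjusted p = 1.48e-06) was the widest of the 9 genes in that comparison, as was that with Epo (1.62 ± 0.14, 3.08-fold, limma adjusted p = 8.77e-05). With spike-in scaling both stayed called (1.76, limma adjusted p = 9.4e-05, and 0.96, limma adjusted p = 0.00398).

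Spike-in scaling moved the median of all genes from 0.45 to -0.59 in Ediff against EryCP repeat, from -0.06 to -0.42 in CD34- CD103- against CD34+ CD103-, and from 0.02 to -0.65 with Epo. In Ediff 70.2% of calls were higher with the 75th percentile and 6.81% with the spike-ins. The 8 genes called in Ediff stayed higher and called under it, at 6.11 for Alas2, 2.59 for Cpox, 2.50 for Alad, 1.84 for Uros, 1.60 for Urod, 1.47 for Ppox, 1.32 for Blvrb and 1.22 for Fech. In CD34- CD103- against CD34+ CD103- the share of calls that were higher went from 45.4% to 4.47%, and Alas2 (0.86), Alad (0.70), Cpox (0.51) and Blvrb (1.76) stayed called. In CD34- CD103- Epo against CD34+ CD103- that share went from 46.6% to 0.525%, only Blvrb stayed called higher, and Ppox (-0.43, limma adjusted p = 0.0308) and Uros were called lower, while Alas2, Alad and Cpox were at 0.24, 0.26 and 0.11. In EryCP against CR Sca1lo, Alas2 and Blvrb stayed called of the 5 genes.

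The design holds a pair of comparisons of cells after Epo with their starting fraction: Ediff against EryCP repeat, and CD34- CD103- Epo against CD34- CD103-. Only in the former were heme genes called. In the latter, the differences ran from -0.49 ± 0.14 for Blvrb (limma adjusted p = 0.0942) and -0.32 ± 0.11 for Ppox (limma adjusted p = 0.186) up to 0.14 ± 0.08 for Uros (limma adjusted p = 0.41), and groups did not overlap for those 3 genes (19.1% of all genes did not). The difference between the responses, fitted over both sets as a contrast of group means, was called for 8 genes, where 23.6% of all genes were called higher: 7.46 ± 0.18 for Alas2 (limma adjusted p = 1.51e-10), 3.72 ± 0.18 for Cpox, 3.67 ± 0.23 for Alad, 2.86 ± 0.20 for Blvrb, 2.83 ± 0.15 for Ppox, 2.75 ± 0.10 for Uros, 2.58 ± 0.16 for Urod and 2.26 ± 0.17 for Fech. For Alas1 it was 0.19 ± 0.19 (limma adjusted p = 0.444). The arms differ in starting fraction, in array set and in the name of the cells in the titles (EML or EMLe2). Ediff is also named as negative for CD34 and cKit. Amount and time of Epo are not given for either arm, nor is any sort after Epo in the third set. These cannot be told apart here.

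**Figure D3:**
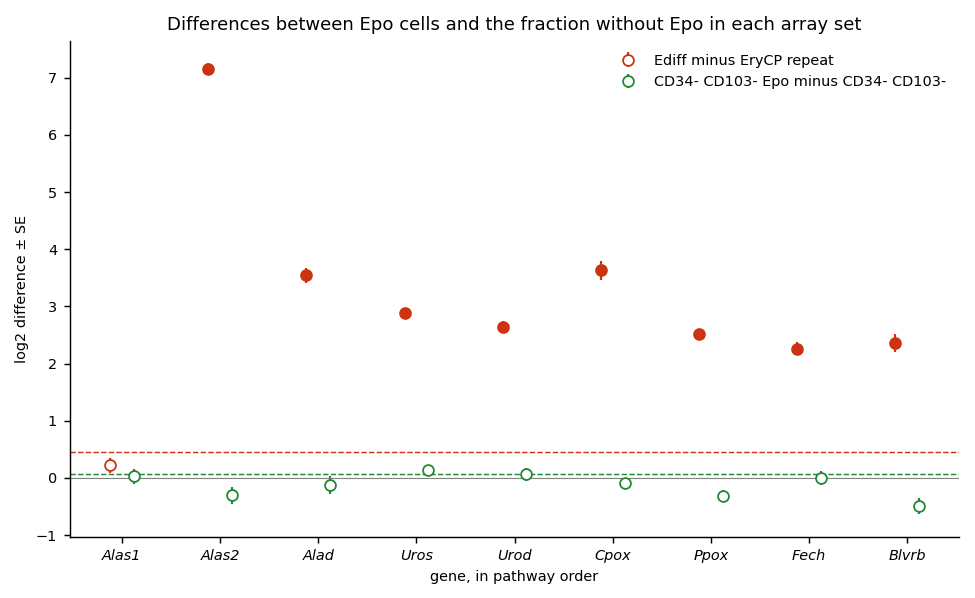
Log2 difference after Epo of each of the 9 genes in pathway order, with its standard error (bars): Ediff minus EryCP repeat in red and CD34- CD103- Epo minus CD34- CD103- in green; filled points were called and dashed lines are the medians of all genes, 0.45 and 0.08. The red points of all genes but Alas1 lie between 2.26 and 7.15, and the green points lie between -0.49 and 0.14.

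The arrays of slide 3 bear on the comparison of CD34- CD103- Epo with CD34- CD103-, because that slide held no Epo array. Within slides 1 and 2, the lower and the higher of the differences were -0.56 and -0.41 for Alas2, -0.47 and -0.46 for Ppox, -0.69 and -0.39 for Blvrb, and -0.44 and -0.39 for Alad. They were closer to 0 for Cpox (-0.12 and -0.05), Urod (-0.15 and -0.06) and Alas1 (-0.20 and -0.12), above 0 for Uros (0.08 and 0.19), and of mixed sign for Fech (-0.13 and 0.33). With slide as a block, Ppox (-0.43 ± 0.07, limma adjusted p = 0.0204) and Blvrb (-0.46 ± 0.10, limma adjusted p = 0.0432) were called lower after Epo, and Alas2 (-0.45 ± 0.10, limma adjusted p = 0.0533) and Alad (-0.32 ± 0.11, limma adjusted p = 0.154) were not.

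**Figure D4:**
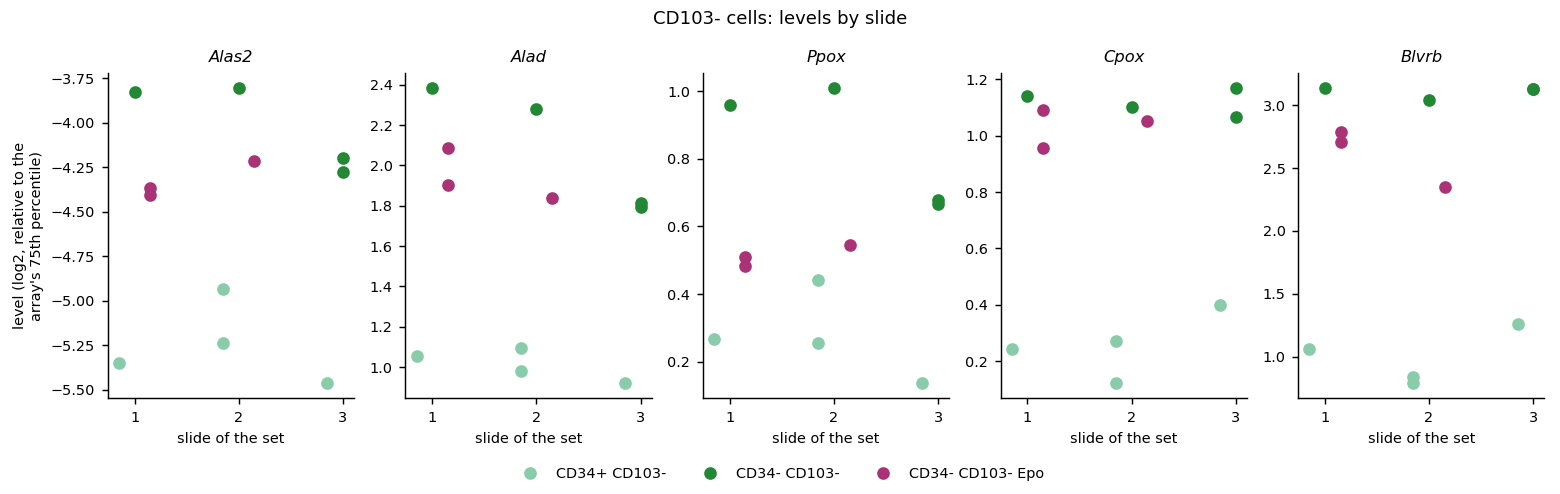
Levels of Alas2, Alad, Ppox, Cpox and Blvrb (log2 signal relative to the array's 75th percentile, y axis) on each array of the third set, by slide (x axis) and group (colour). On slide 3 the CD34- CD103- arrays lie lower for Alas2, Alad and Ppox than on slides 1 and 2, and no CD34- CD103- Epo array is on that slide.

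EryCP against CR Sca1lo and CD34- CD103- against CD34+ CD103- are 2 comparisons, in different array sets, of cells low for Cd34 with cells higher for it: the Cd34 transcript fell by 4.72 on the log2 scale in the former (limma adjusted p = 4.12e-05) and by 1.78 in the latter (limma adjusted p = 3.14e-05). Alas2 differed by 2.75 ± 0.33 in the one and 1.22 ± 0.14 in the other, Blvrb by 2.47 ± 0.28 and 2.12 ± 0.13, Alad by 1.16 ± 0.14 and 1.06 ± 0.14, Cpox by 1.03 ± 0.19 and 0.86 ± 0.08, and Ppox by 0.73 ± 0.13 and 0.55 ± 0.10. All 5 were called in both. The test of the difference of these steps called 0 of 9 with limma, 1 had an unadjusted p under 0.05, and 0.206% of all genes were called higher and 0.195% lower. The widest was that of Alas2 (1.54 ± 0.37, limma adjusted p = 0.159), which was called when all 26 arrays were fitted together (limma adjusted p = 0.0157), with quantile normalization (limma adjusted p = 0.00784) and with normexp after spots of outlying background were left out (limma adjusted p = 0.0121).

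Marker genes of other cell types moved with these comparisons. In bulk RNA, a change in the share of a cell type and a change in RNA per cell cannot be told apart. The mean log2 level of 10 erythroid genes ran from 5.57 to 5.63 over Ediff arrays and from 0.06 to 0.48 over EryCP repeat, and all 10 were called higher. It was -1.25 to -0.78 in EryCP, -3.78 to -2.99 in CR Sca1lo and -3.93 to -3.01 in Sca1hi, and 6 of the 9 genes tested were called higher in EryCP than in CR Sca1lo. In the third set it was -1.67 to -1.19 in CD34- CD103-, -4.28 to -3.91 in CD34+ CD103- and -2.45 to -2.19 in CD34- CD103- Epo, with 7 of 10 higher in CD34- CD103- than in CD34+ CD103-, and 0 higher and 3 lower after Epo: Kel (-1.54), Gata1 (-0.68) and Rhd, at least 4.76-fold lower since it was not well above background there. Rhd, a blood group gene, was above background on no array of Sca1hi, CR Sca1lo, CD34+ CD103- or CD34- CD103- Epo.

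The mean level of 9 mast cell and basophil genes was 4.55 to 4.81 in EryCP, -0.18 to -0.03 in CR Sca1lo, 0.66 to 1.07 in Sca1hi, 4.48 to 4.76 in EryCP repeat and -1.87 to -1.64 in Ediff, where Hpgds was above background on no array. It was 4.37 to 4.48 in CD34- CD103-, 0.56 to 0.85 in CD34+ CD103- and 2.84 to 3.04 in CD34- CD103- Epo. Thus 7 of 9 were called higher in EryCP than in CR Sca1lo and 7 of 9 higher in CD34- CD103- than in CD34+ CD103-, while 8 of 9 were lower in Ediff and 7 of 9 lower after Epo in the third set. These directions were the same with quantile and spike-in scaling, and the part of these cells in the levels of the heme genes was not tested. Of 6 stem and progenitor genes, 4 were lower in EryCP than in CR Sca1lo and 3 lower in CD34- CD103- than in CD34+ CD103-. In Ediff 39.8% of all genes tested were called higher. Of the marker genes tested there, 1 of 6 neutrophil genes was higher and 3 lower, and 2 of 5 macrophage genes higher and 1 lower. For lymphoid genes it was 3 of 5 higher and 0 lower, and for megakaryocyte genes 1 of 6 higher and 3 lower.

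Beside Blvrb, 3 enzymes of heme breakdown were followed: the heme oxygenases Hmox1 (inducible) and Hmox2 (constitutive), and Blvra, the main biliverdin reductase. In Ediff, Blvra was higher by 0.56 (limma adjusted p = 0.0164), Hmox2 was lower (-0.50, limma adjusted p = 0.00748), and Hmox1 was at 0.04 (limma adjusted p = 0.791). With spike-in scaling Hmox1 and Hmox2 (-1.55) were both called lower, and Blvra was at -0.48. Hmox1 was lower in CR Sca1lo than in Sca1hi (-1.47 ± 0.25, limma adjusted p = 0.0218), as Blvrb was, and higher in CD34- CD103- Epo than in CD34- CD103- (0.70 ± 0.14, limma adjusted p = 0.027). Blvra (0.35, limma adjusted p = 0.0075) was higher in CD34- CD103- than in CD34+ CD103-, and in EryCP against CR Sca1lo Hmox1 was at 0.81 (limma adjusted p = 0.206).

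Of 21 genes of substrate supply, iron-sulfur assembly and transport at the mitochondrion, 16 were higher and 2 lower in Ediff (39.8% of all genes called higher). Their median was 1.24, beside 0.45 over all genes. They were led by Slc25a37, the mitochondrial iron importer mitoferrin 1 (4.16 ± 0.11, limma adjusted p = 3.32e-06), Tmem14c, which brings protoporphyrinogen across the inner membrane (2.62 ± 0.15), and Abcb10, a transporter that stabilises mitoferrin 1 (2.39 ± 0.08). With spike-in scaling 9 were higher and 5 lower, with a median of 0.19, and those 3 stayed called (3.12, 1.58 and 1.35). In EryCP against CR Sca1lo 2 were higher, Abcb10 (0.93, limma adjusted p = 0.00989) and the glycine transporter Slc6a9 (0.82, limma adjusted p = 0.0161), and 1 was lower, Shmt2, which makes and splits glycine in the mitochondrion (-0.84, limma adjusted p = 0.0175). In CD34- CD103- against CD34+ CD103- 4 were higher, with Slc6a9 at 0.78, and 3 were lower, with Tspo at -0.55 and Shmt2 at -0.41; with spike-in scaling that was 1 and 11. After Epo in the third set 2 were higher, Shmt2 (0.53, limma adjusted p = 0.0378) and Slc25a37 (0.37, limma adjusted p = 0.0472), and 0 lower.

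Of 10 genes of heme export, import, binding and sensing, 3 were higher and 1 lower in Ediff, where 39.8% of all genes tested were called higher. Eif2ak1, the kinase HRI that slows translation when heme is short, was higher by 1.95 ± 0.10 (limma adjusted p = 3.13e-05), and Hebp1, a heme-binding protein, by 0.98; with spike-in scaling Eif2ak1 was at 0.90 and Hebp1 at -0.06. Bach1, a repressor that heme inactivates, was 0.67 higher, or -0.37 with spike-in scaling, and Nfe2l2, the NRF2 factor of the oxidative stress response, was lower (-0.59). Slc48a1, a heme transporter of the lysosome, was the one gene of this list called in CD34- CD103- against CD34+ CD103- (0.44, limma adjusted p = 0.00933) and after Epo in that set (0.46, limma adjusted p = 0.0375).

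Of 10 regulators known to act on genes of heme synthesis or iron, 6 were higher and 0 lower in Ediff (39.8% of all genes called higher). Klf1, an erythroid factor that binds CACC motifs, was at 3.04, the GATA1 partner Zfpm1 at 1.62 and Lmo2 at 1.23. With spike-in scaling 2 were higher, Klf1 (2.00) and Zfpm1 (0.58), and 4 lower. Klf1 (4.38) and Gata1 (3.81) were the 2 called higher in EryCP against CR Sca1lo, and in CD34- CD103- against CD34+ CD103- Klf1 (4.04) and Gata1 (2.86) led 4 higher genes, with Ldb1 lower (-0.40). After Epo in the third set Gata1 was the 1 gene called, and lower (-0.68, limma adjusted p = 0.0275). Klf1 and Gata1 are also on the erythroid list.

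**Figure D5:**
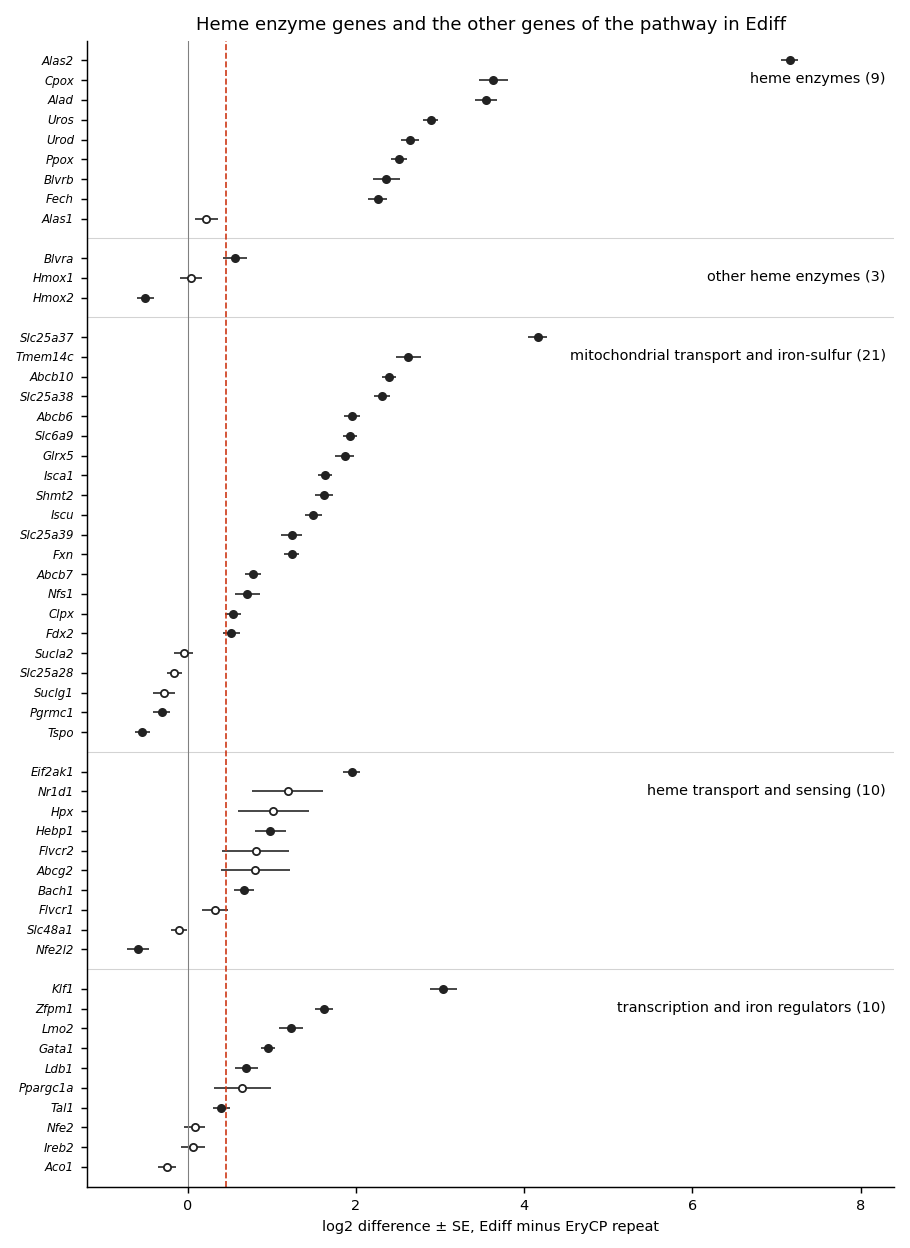
Log2 difference, Ediff minus EryCP repeat (x axis), with its standard error (bars), of the 9 heme enzymes and the genes of 4 other fixed lists (rows); filled points were called at an adjusted p under 0.05, and the dashed line is the median of all genes, 0.45. Alas2 (7.15) lies farthest right, followed by Slc25a37 (4.16), Cpox (3.63) and Alad (3.54), and Alas1 and Hmox1 lie near 0.

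Likeness of pattern was measured as Pearson's r over the 26 arrays after the mean of each array set was subtracted; arrays share slides and the Ediff arrays carry most of the spread, so r is a description. Alad and Cpox (r = 0.981) and Alas2 and Alad (r = 0.973) varied closely together. Alas1 had r of 0.226 to 0.600 with the other 8 members, and Blvrb 0.464 to 0.797, lowest with Uros. The members themselves were left out when the genes most like each were ranked among 15680 genes with a symbol. Gadd45a (0.986) and Glrx5 (0.985) were near the top for Urod, and Gadd45a (0.991) and Slc35g1 (0.984) for Cpox. Ppox was most like Slc25a38 (0.991), the mitochondrial glycine carrier, followed by Gucd1 (0.977). Alas2 was most like Abcb10 (0.980), Cish (0.977) and Rasl11a (0.975), Alad like Tmc6 (0.979), Gadd45a (0.978) and Hba-a1 (0.978), and Uros like Fn3k, Mgst3 and Slc25a37 (0.981 each). Fech was most like Cpd (0.974), Bcl2l13 (0.973) and Usp45 (0.973), Blvrb like Stx2 (0.968), Pon3 (0.965) and Glipr2 (0.964), and Alas1, with the lowest values, like Tmem19 (0.902), Mlx (0.890) and Mfsd5 (0.889).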

How the data were processed

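RNA of 8 groups of EML cells, placed by their titles, was measured on 26 arrays. Per the file headers, Agilent Feature Extraction read them, in version 10.1.1.1 for the first set and the second and 10.7.1.1 for the third. Spot intensity, on a linear scale and with the background already taken off by that software, is what the deposited array files hold. The authors also deposited 1 matrix of log2 values for the series, of unstated scale and centring, which served as an alternative. Its columns had medians of 7.18 to 7.21, 7.09 to 7.19 and 7.28 to 7.29 by set. They correlated best with log2 median signals in the first set and the second (lowest r 0.9946 and 0.997), but with log2 processed signals in the third (lowest r 0.9998).

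Accessions were turned into symbols with a RefSeq gene list of GRCm38.p6, whose coordinates were not used for genes: 27071 of 41174 probes matched, and the 14103 unnamed ones were each counted as a gene. Log2 processed signals were centred on the 75th percentile of the probes of each array that are not controls. Spots marked uneven or outlying were dropped (48 to 446 an array), and 0 were saturated. A probe passed on an array where 0.5 or more of its spots were well above background, and entered the fit if it passed on all arrays of 1 or more groups and was measured on 2 or more arrays in each. Of several probes of a gene, that with the highest mean over the set was used. Each set was fitted whole with limma 3.58.1 (lmFit, eBayes, 2-sided; R 4.3.3, the data.table package, version 1.17.8), and differences between sets were contrasts of group means. Ratios of Alas2 to Alas1 were tested by exact permutation. Plots were made in Python 3.11.15 with matplotlib 3.10.9.

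The members, lists and markers were chosen with earlier results of these data known. Beside the 9 members, the text names up to 3 called genes per list and comparison, those of the widest difference, and those of the 3 genes of highest r with each member that are reported here. Cd34 and Kit are named as a check of the labels, and Hmox1 and genes under another scaling also where they were not called. Some items are not reported here. The number of arrays limits the precision: the median SE of a log2 difference over all genes was 0.26 in the first set, 0.15 in the second and 0.13 for CD34- CD103- against CD34+ CD103-. The limma fit was also run on simulated data with independent noise for each gene. Those data held no slide or background effects, so they cannot show how such effects move the calls. Alternatives were normexp background correction (offset 50, on the median signal, as mean signals were not in the files used), the same without spots of outlying background (added after seeing the data), quantile and spike-in scaling, no filter on dim probes, the deposited values, the mean over probes, marked spots kept, all 26 arrays in 1 fit, eBayes with trend and robust, slide as a block, and leaving out each array or slide.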

Additional observations from a re-analysis of the deposited data

Results flagged for a closer look

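The response to Epo differed between the sets for 8 of the 9 genes by a test of the difference itself, (Ediff minus EryCP repeat) minus (CD34- CD103- Epo minus CD34- CD103-), in log2 units: Alas2 at 7.46 (limma adjusted p = 1.51e-10), Cpox at 3.72 (limma adjusted p = 1.93e-08), Alad at 3.67 (limma adjusted p = 2.32e-07), Blvrb at 2.86 (limma adjusted p = 4.85e-07), Ppox at 2.83 (limma adjusted p = 3.96e-08), Uros at 2.75 (limma adjusted p = 2.86e-09), Urod at 2.58 (limma adjusted p = 2.12e-07) and Fech at 2.26 (limma adjusted p = 9.94e-07). Starting fraction, array set and the name of the cells in the titles (EML or EMLe2) differ between these arms. Amount and time of Epo and selection after it may differ too. These cannot be told apart.

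In CD34- CD103-, 1 of 4 Blvrb values stood apart from the others: 3.04, with a gap to the nearest of them that was 0.913 of the group's range, above Dixon's critical value. The others lay between 3.13 and 3.14, so the gap is small in log2 units, and chance gives such a mark in about 1 of 20 groups.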

How the results depend on the processing

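No paired analysis was possible because the numbers in the titles count arrays, so that the groups compared share none, other than by slide: the fits with slide as a block, which set arrays of 1 slide against each other, are given here. Of 1708 recomputed member values, 1513 kept direction and side of the threshold, 110 lost a call, 32 gained one, 4 reversed and 49 changed sign without a call in either. The reversed values, all with spike-in scaling, were Alas1 in Ediff against EryCP repeat (-0.82) and, in CD34- CD103- Epo against CD34+ CD103-, Uros (-0.64), Ppox (-0.43) and Urod (-0.21).

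Members called: CR Sca1lo against Sca1hi gave 1, and 0 with normexp, spike-in scaling, no filter or without slide 1, 2 or 3, 3 with slide as a block, and 0 to 1 leaving out single arrays. EryCP against CR Sca1lo gave 5, and 1 with normexp, 2 with spike-in scaling, 8 with the block, 2, 2 and 0 without slide 1, 2 or 3, and 3 to 5 by array (Cpox and Ppox lost). EryCP against Sca1hi gave 4, and 0 with normexp, 2 with spike-in scaling, 2 without slide 1, 0 without slide 3, and 2 to 3 by array. Ediff against EryCP repeat gave 8, 2 with normexp, and 8 whichever array was left out. It also gave 8 with normexp without spots of outlying background, but with Alas1 in place of Alad, which was not tested there. CD34- CD103- against CD34+ CD103- gave 6, 3 without slide 2, and 5 to 6 by array (Urod lost). CD34- CD103- Epo against CD34- CD103- gave 0, 1 with quantile normalization or trend and robust, 2 with the block, and 0 by array. CD34- CD103- Epo against CD34+ CD103- gave 5, all higher, 3 with either normexp, 1 without slide 2, and 4 by array (Urod lost). With spike-in scaling it gave 1 higher and 2 lower. The difference of the Epo responses gave 8 throughout, or 7 with either normexp: Fech lost its call with normexp, and Alad was not tested with normexp without spots of outlying background. The difference of EryCP against CR Sca1lo from CD34- CD103- against CD34+ CD103- gave 0, and 1 with quantile normalization, 26 arrays in 1 fit or normexp without spots of outlying background.

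Genes called over the array moved by over 1.5 times too. CR Sca1lo against Sca1hi went from 948 to 2 (normexp), 135 (spike-in), 1611 (quantile), 2216 (deposited table), 3089 (26 arrays) and 4696 (block). EryCP against CR Sca1lo went from 1311 to 73, 395, 2308, 2986, 3574 and 5342, and EryCP against Sca1hi from 1691 to 98, 557, 2887 (deposited table), 3737 and 5508. Ediff went from 13982 to 235 with normexp, CD34- CD103- against CD34+ CD103- from 3413 to 11762 with spike-ins, CD34- CD103- Epo against it from 1510 to 878 and 21913, and against CD34- CD103- from 710 to 366 (normexp), 453 (26 arrays) and 1095 (trend). The difference of the Epo responses went from 10323 to 786 with normexp, and the difference of EryCP against CR Sca1lo from CD34- CD103- against CD34+ CD103- from 111 to 5 (normexp), 20 (spike-in), 196 (deposited table) and 209 (26 arrays). Leaving out 1 array or slide gave 0 to 637 genes in CR Sca1lo against Sca1hi, 32 to 1033 in EryCP against CR Sca1lo and 117 to 1337 in EryCP against Sca1hi, each lowest without slide 3. It gave 1139 to 3623 in CD34- CD103- against CD34+ CD103-, 202 to 765 in CD34- CD103- Epo against CD34- CD103- and 309 to 1377 in CD34- CD103- Epo against CD34+ CD103-, each lowest without slide 2, and 58 to 114 in the difference between EryCP against CR Sca1lo and CD34- CD103- against CD34+ CD103-, lowest without EryCP replicate 1. Ediff (9665 to 17080) and the difference of the Epo responses (8505 to 12876) stayed within 1.5 times. The change of the Alas2 to Alas1 ratio lost its smallest exact permutation p with normexp (0.04 in CD34- CD103- against CD34+ CD103-, -0.03 after Epo) and with the deposited table after Epo (-0.37), and reached it in CD34- CD103- Epo against CD34+ CD103- with the deposited table (0.59) and the mean of probes (0.72). The cause was not tested. In the first set 3 arrays a group limit what can be called. The spread between slides limits it too in the main fit, which left slide out although each slide held all 3 fractions.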
